A study of Brassica rapa with 6 samples.

Results

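The miR159 family of Chinese cabbage (Brassica rapa) was described in small RNA libraries from petiole and leaf. Members were all entries of the deposited table whose name holds miR159, and entries with the same mature sequence were counted once. This gave 12 entries and 11 sequences out of 1011 sequences in the table. The libraries were 3 from petiole, the stalk that carries the leaf blade, and 3 from leaf, all of wild type plants grown in a greenhouse, with no treatment named in the labels. The study compared small RNA between these tissues. The labels were not checked against tissue markers, since none was among the small RNAs used here.

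miR159 is a deeply conserved plant miRNA that guides cleavage of mRNAs for GAMYB-type MYB transcription factors. In Arabidopsis its main targets are MYB33 and MYB65, and plants without miR159a and miR159b have upward-curled leaves and reduced growth. The related family miR319 has a very similar sequence but mainly targets TCP transcription factors of leaf growth. In Arabidopsis the long hairpins of both families are cut stepwise from the loop towards the base, so that they can release further small RNA duplexes beside the mature one. No target mRNA was measured in the libraries analysed here.

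The sequences that carry the results are shown 5′ to 3′ as DNA letters, with the seed (bases 2 to 8) in capitals. The first is the mature miRNA, and the next is taken, by name and pairing, as the opposite strand of its duplex. The remaining ones have MIR159a names with other sequences.
bra-miR159a: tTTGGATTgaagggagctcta
bra-MIR159a-p5: gGGCTCCTtatagttcaaacg
aly-MIR159a-p5: aGCTGCTAagctatggatccc
aly-MIR159a-p3_1ss12CT: cTTGCATAtcttaggagcttt
ath-MIR159a-p3_1ss11CT: tTGCATATcttaggagcttt
The labels p5 and p3 stand for the 5p and 3p side of a precursor, and the prefixes bra, aly, ath, cas and aqc for the species whose entry was matched. The entry bra-MIR159a-p5 could form 18 base pairs with bra-miR159a, 5 of them G:U, with 2 unpaired bases at the 3′ end of each strand. Such an overhang is the usual end of a Dicer product. The entries aly-MIR159a-p5 and aly-MIR159a-p3_1ss12CT could form 14 pairs, none of them G:U, with 3 mismatches and without a gap. In the cross combinations, bra-MIR159a-p5 could form 15 pairs with aly-MIR159a-p3_1ss12CT and aly-MIR159a-p5 could form 13 with bra-miR159a, in both cases only with gaps. No hairpin was placed, so the duplex of the bra entries and a second duplex of the aly entries rest on names and these pairings alone. The ath p3 entry is the aly p3 entry without its first base, which changes its first base to T and shifts its seed by 1 base. Both species entries of MIR159a-p5 have the same sequence and the same values. In the RefSeq annotation of assembly CAAS_Brap_v3.01, 1 gene, MIR159A, carries the name bra-MIR159a. Its coordinates are not given, since no source used here names the authors' build.

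The other members are variants of these forms, named by added or missing end bases (L for the 5′ end, R for the 3′ end) and substitutions (ss) against the matched entry. Those like bra-miR159a are shown because their differences from it lie at or near the ends or at position 7, inside the seed. The last, cas-miR159b-5p_1ss21CA, is instead a variant of aly-MIR159a-p5.
ath-miR159b-3p_R+1_1ss21TA: tTTGGATTgaagggagctctaa
ath-miR159c_R-1: tTTGGATTgaagggagctcc
ath-miR159c_R-1_1ss19CT: tTTGGATTgaagggagcttc
aqc-miR159: tTTGGACTgaagggagctcta
ath-miR159c_L-1R+3_1ss7TC: tTGGACTGaagggagctccttca
cas-miR159b-5p_1ss21CA: aGCTGCTAagctatggatcca
Positions are counted from 1 at the 5′ end of bra-miR159a, and its base is given first. The form ath-miR159b-3p_R+1_1ss21TA equals bra-miR159a with 1 base added at the 3′ end. The form ath-miR159c_R-1 ends 1 base earlier and differs by T20C, and ath-miR159c_R-1_1ss19CT by C19T and T20C. The form aqc-miR159 differs by T7C alone. The 23 nt form ath-miR159c_L-1R+3_1ss7TC starts 1 base later and differs by T7C, T20C and A21T. Counted along aly-MIR159a-p5, cas-miR159b-5p_1ss21CA differs by C21A. Of the 11 sequences, 4 share the seed TTGGATT, and no other sequence in the table has it. The base at position 7 alone sets this seed apart from TTGGACT, the seed of aqc-miR159 and of 4 miR319 sequences in the table. The seed TGGACTG of bra-miR319-3p differs also because that sequence starts 1 base later.

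The mature bra-miR159a made up nearly all of the family in both tissues. It had a normalized count of 58543, 60478 and 58796 in the petiole libraries and of 100342, 107412 and 96287 in the leaf libraries. The groups did not overlap, and each petiole value was lower than each leaf value. With low values on a regular step taken as 1 read, these counts stood for 61931 to 65021 reads in petiole and 90919 to 103062 in leaf. In all 6 libraries bra-miR158-3p was more abundant, while bra-miR159a had rank 2 in all petiole libraries and rank 2 or 3 in the leaf libraries. Its share of the summed miR159 count was 96.6%, 96.5% and 96.8% in petiole and 95.95%, 95.97% and 95.87% in leaf. The mean share was 96.7% ± 0.171 in petiole and 95.9% ± 0.0526 in leaf (SD, n = 3 each; exact two-sided permutation p = 0.1, the smallest that 3 against 3 libraries can give).

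The remaining 10 sequences together held 3.35% ± 0.171 of the miR159 sum in petiole and 4.07% ± 0.0526 in leaf (SD, n = 3 each). Most of this was the aly and ath p3 entries, with 2.05% ± 0.138 in petiole and 3.09% ± 0.0648 in leaf. The 3 sequences of the 5p side held 0.627% ± 0.0761 in petiole and 0.436% ± 0.0106 in leaf. By length, sequences of 21 nt made up 99.2% of the sum in petiole and 99.3% in leaf. The 22 nt form with the added 3′ base held 0.564% ± 0.0458 in petiole and 0.488% ± 0.0603 in leaf, and the groups overlapped.

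**Figure D1:**
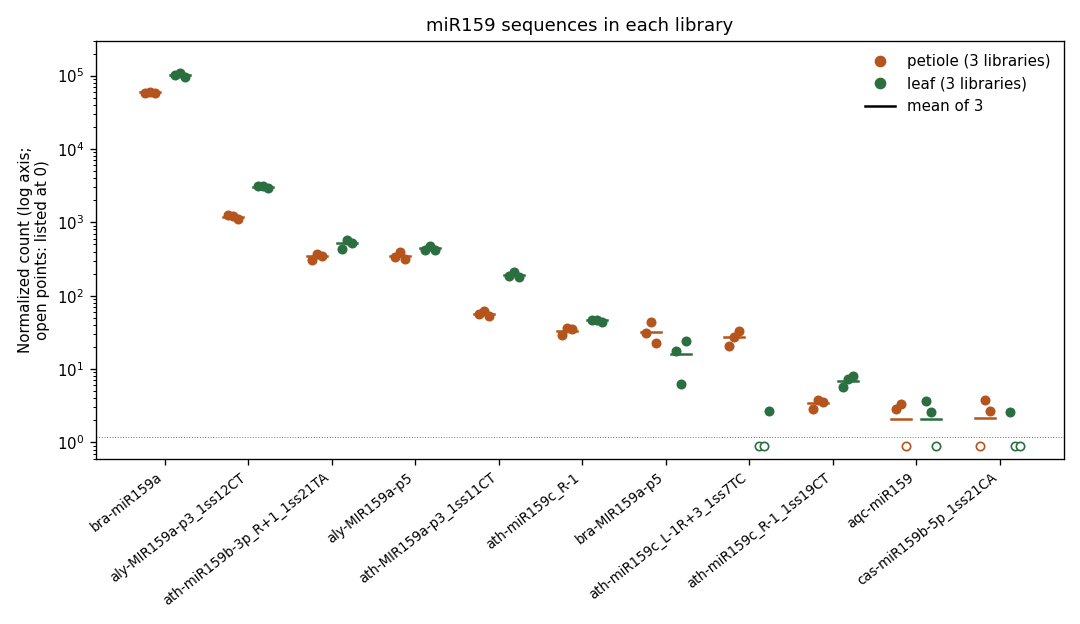
Normalized count of each of the 11 miR159 sequences (log axis) in 3 petiole and 3 leaf libraries, with lines at the means and open points below the dotted line for values listed at 0. bra-miR159a lies at 58543 to 60478 in petiole and 96287 to 107412 in leaf, far above every other member.

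The tissue difference of bra-miR159a depended on how the libraries were scaled. On the deposited scale it fell in petiole, with a mean of 59272 ± 1052 in petiole and 101347 ± 5631 in leaf (SD, n = 3 each). The petiole minus leaf difference was -0.77 ± 0.056 (SE) on the log2(value + 1) scale, with a limma adjusted p of 4.1e-05. Summed over all sequences, the deposited counts were 436475 ± 10506 in petiole and 789728 ± 15787 in leaf, a total 1.81 times higher in leaf. With every library set to the same total, bra-miR159a had values of 83050, 82683 and 84068 in petiole and 77608, 81927 and 76402 in leaf. The petiole libraries were then the higher ones, without overlap, but the log2 difference of 0.083 ± 0.041 (SE) did not pass (limma adjusted p = 0.11). Median-of-ratios scaling kept the lower call, with -0.75 (limma adjusted p = 0.00012). Its size factors lay between 0.995 and 1.04 in all 6 libraries, so it left the deposited values nearly unchanged. This scaling is therefore no separate check of the scale. After quantile normalization the difference was 0.12 and did not pass (limma adjusted p = 0.12). In bulk tissue, fewer cells that make a small RNA and less of it per cell cannot be told apart.

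As a share of the library, the family was slightly higher in petiole. The summed miR159 count was 61325 ± 1162 in petiole and 105641 ± 5818 in leaf (SD, n = 3 each). It was 14.02%, 13.97% and 14.16% of the library total in petiole and 13.2%, 13.9% and 13.0% in leaf. The petiole shares lay above the leaf shares, though the lowest petiole and the highest leaf share were close together. The difference of means was 0.680 percentage points (exact two-sided permutation p = 0.1). With bra-miR158-3p, the most abundant sequence, left out of the total, the shares were 17.9% ± 0.198 in petiole and 17.6% ± 0.533 in leaf (SD, n = 3 each; exact permutation p = 0.5), so the order of the libraries was then mixed.

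**Figure D2:**
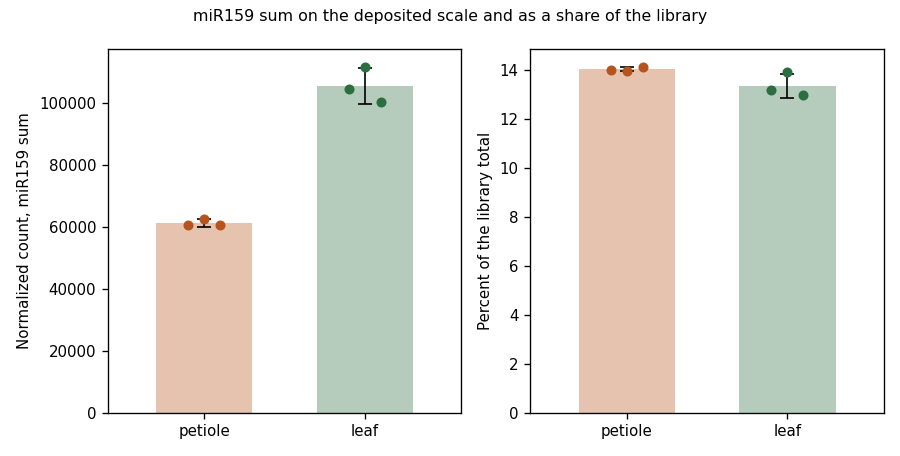
Summed miR159 count on the deposited scale (left) and as a percent of the library total (right), with bars for the mean of 3 libraries, error bars for the SD and points for libraries, petiole left of leaf. The sum is 61325 in petiole and 105641 in leaf, while the shares are 14.1% in petiole and 13.4% in leaf.

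Of the 11 sequences, 9 averaged 5 or more over the 6 libraries and were tested together with all others, 601 in total. Of the 9, 7 averaged 5 or more in each tissue, 1 (ath-miR159c_L-1R+3_1ss7TC) passed this filter through petiole alone and 1 (ath-miR159c_R-1_1ss19CT) through leaf alone. On the deposited scale 6 of the 9 fell in petiole, 2 did not pass the test (limma adjusted p under 0.05) and 1 was called higher. The 1 called higher, here and among the higher calls under every other scale, was the form that passed the filter through petiole alone, which had to differ in this direction. The 6 that fell were among the 7. Of all sequences tested on the deposited scale, 28.3% were called lower, 21.3% higher and 49.6% either way. The petiole values lay wholly below the leaf values for 7 of the 9 members and wholly above them for 1, which compares with 31.3% and 28.5% of all sequences (59.7% without overlap). With equal library totals 2 of the 9 were called lower and 4 higher, while 17.8% of all sequences were called lower and 53.4% higher (71.2% either way). Over the 7 members that averaged 5 or more in each tissue, the median log2 difference was -0.57 on the deposited scale, beside 0.18 over all sequences tested. The latter include sequences that passed the filter through 1 tissue alone, so the sets are not alike. The sign of the family median also depended on the scale. Over all 9 tested members, not filtered in each tissue, it was 0.29 with equal totals and 0.12 after quantile normalization. Over all sequences tested it was 0.97 and 0.19 on these scales. The 2 forms lower both on the deposited scale and with equal totals were the 3p entries aly-MIR159a-p3_1ss12CT and ath-MIR159a-p3_1ss11CT. They were also called lower with median-of-ratios scaling, which nearly equals the deposited scale, and after quantile normalization. With median-of-ratios scaling and quantile normalization, 27.3% and 24.3% of all sequences were called lower (49.3% and 47.3% either way).

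The form aly-MIR159a-p3_1ss12CT, the most abundant member after bra-miR159a, had counts of 1261, 1234 and 1101 in petiole and of 3105, 3173 and 2931 in leaf. No petiole value came near a leaf value. The log2 difference was -1.36 ± 0.070 (SE; limma adjusted p = 9.7e-06) on the deposited scale and -0.50 ± 0.061 (limma adjusted p = 0.00049) with equal totals. Its version without the first base, ath-MIR159a-p3_1ss11CT, had 56.2, 61.9 and 52.4 in petiole and 188, 208 and 181 in leaf, again without overlap. Its differences were -1.74 ± 0.11 (SE; limma adjusted p = 2.0e-05) and -0.90 ± 0.097 (limma adjusted p = 0.00031) on the same 2 scales. For 100 counts of the 21 nt form there were 4.46, 5.01 and 4.76 of the 20 nt form in petiole and 6.06, 6.55 and 6.18 in leaf. The version that starts with T was the rarer one in every library, and its ratio was lower in each petiole library than in any leaf library.

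The 5p entry that can pair with it, aly-MIR159a-p5, had counts of 340, 398 and 314 in petiole and of 423, 484 and 423 in leaf. The petiole values were lower, with the highest of them close to the lowest leaf values. On the deposited scale its log2 difference was -0.34 ± 0.11 (SE; limma adjusted p = 0.040). That call was lost when any 1 of petiole replicates 1 and 3 and leaf replicates 1, 2 and 3 was left out (limma adjusted p from 0.063 to 0.116), and with median-of-ratios scaling (limma adjusted p = 0.057). With equal totals the form was called higher instead, by 0.51 ± 0.094 (limma adjusted p = 0.0035), as it was after quantile normalization, by 0.41 (limma adjusted p = 0.0070). A cas entry that differs from it in the last base had 0, 3.84 and 2.71 in petiole and 2.59, 0 and 0 in leaf, too low to be tested.

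Ratios within a library do not depend on the library scale. Each sequence was therefore also tested after setting every library to the same bra-miR159a value, a comparison added after the values were known, in which 50.2% of 600 sequences were called higher and 19.0% lower in petiole (69.2% either way). Of the 8 members tested, 3 were called higher and 2 lower, the form that passed the filter through petiole alone among the 3. Their ratios lay wholly above those of leaf for 4 and wholly below for 2, against 54.5% and 20.5% of all sequences. Relative to bra-miR159a, the aly and ath p3 entries both fell in petiole and aly-MIR159a-p5 rose. For 100000 counts of bra-miR159a there were 2023 ± 142 of aly-MIR159a-p3_1ss12CT in petiole and 3031 ± 71.3 in leaf (SD, n = 3 each), a log2 difference of -0.59 ± 0.066 (SE; limma adjusted p = 0.00042). For ath-MIR159a-p3_1ss11CT the ratio was 95.9 ± 6.56 in petiole and 190 ± 3.31 in leaf, a log2 difference of -0.98 ± 0.094 (limma adjusted p = 0.00018). The ratio of aly-MIR159a-p5 was 591 ± 62.1 in petiole and 437 ± 14.3 in leaf, a log2 difference of 0.43 ± 0.092 (limma adjusted p = 0.0070). Neither the 3′ extended form nor ath-miR159c_R-1 passed in this comparison, with log2 differences of 0.20 ± 0.12 (adjusted p = 0.155 with limma) and 0.30 ± 0.14 (adjusted p = 0.101 with limma).

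**Figure D3:**
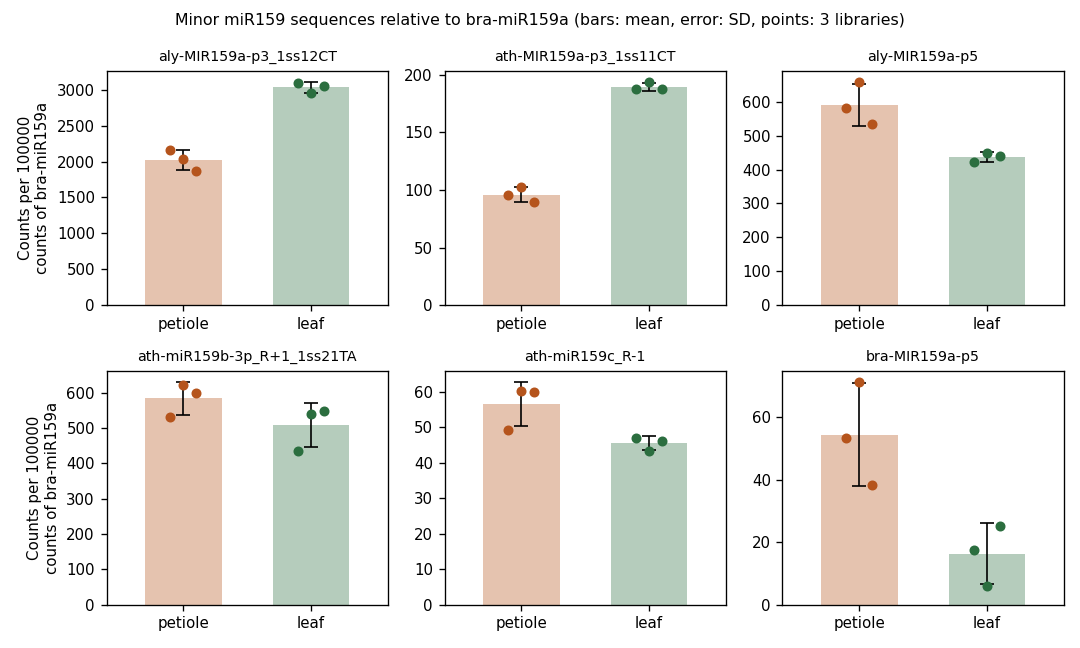
Counts of 6 minor miR159 sequences per 100000 counts of bra-miR159a, with bars for the mean of 3 libraries, error bars for the SD and points for libraries, petiole left of leaf. The aly p3 entry lies at 2023 in petiole and 3031 in leaf, while aly-MIR159a-p5 lies at 591 in petiole and 437 in leaf.

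The balance of aly-MIR159a-p5 and aly-MIR159a-p3_1ss12CT moved towards the 5p entry in petiole. For 100 counts of aly-MIR159a-p3_1ss12CT there were 27.0, 32.2 and 28.5 of aly-MIR159a-p5 in petiole and 13.6, 15.2 and 14.4 in leaf. Every petiole ratio lay well above every leaf ratio, although the 3p side was the more abundant one in both tissues. The mean was 29.2 ± 2.69 in petiole and 14.4 ± 0.806 in leaf (SD, n = 3 each), and the log2 ratio differed by 1.02 ± 0.10 (SE; limma adjusted p = 0.00063). With both p3 entries added together the 5p count per 100 was 27.9 ± 2.50 in petiole and 13.6 ± 0.726 in leaf. Paired with the 20 nt 3p entry, the same 5p sequence gave a log2 difference of 1.40 ± 0.077 (SE; limma adjusted p = 7.1e-05), which is no separate observation of the 5p side. Among 64 locus names with an entry on each arm, 23.4% were called higher and 26.6% lower in petiole. The aly and ath miR159a ratios ranked 13 and 10 from the highest difference. These shares and ranks include locus names without a count on either arm in any petiole library. For such names the fitted petiole ratio comes only from the added 1. Names of this kind were called in both directions, and the name at rank 11 was among them. The name at rank 12, bra-miR9552b, was also of this kind but did not pass (limma adjusted p = 0.051). At rank 1, ath-miR319c had its 5p entry listed at 0 in all leaf libraries, so its difference also depends on the added 1.

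The entry taken as the strand opposite the mature miRNA, bra-MIR159a-p5, was scarce. It had 31.2, 43.2 and 22.6 in petiole and 17.6, 6.25 and 24.4 in leaf, standing for 25 to 45 reads in petiole and 6 to 23 in leaf. The groups overlapped, since petiole replicate 3 lay below leaf replicate 3, and the difference of 1.10 ± 0.50 (SE) did not pass on the deposited scale (limma adjusted p = 0.117). It ranged from 0.57 to 1.47 when 1 library was left out. With equal library totals the form was called higher, by 1.91 ± 0.50 (SE; limma adjusted p = 0.015). For 100 counts of bra-miR159a there were 0.0533, 0.0714 and 0.0384 of it in petiole and 0.0176, 0.00582 and 0.0253 in leaf, without overlap. The log2 ratio differed by 1.87 ± 0.56 (SE; limma adjusted p = 0.040). It was lost when 5 locus names whose 2 entries are the same sequence were kept in the fit (limma adjusted p = 0.059), and when any 1 of petiole replicates 1, 2 and 3 and leaf replicate 1 was left out (limma adjusted p from 0.066 to 0.112). The comparison relative to bra-miR159a over all sequences fits the same ratio and is no further observation; there the log2 difference was 1.83 ± 0.52 (SE; limma adjusted p = 0.021).

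**Figure D4:**
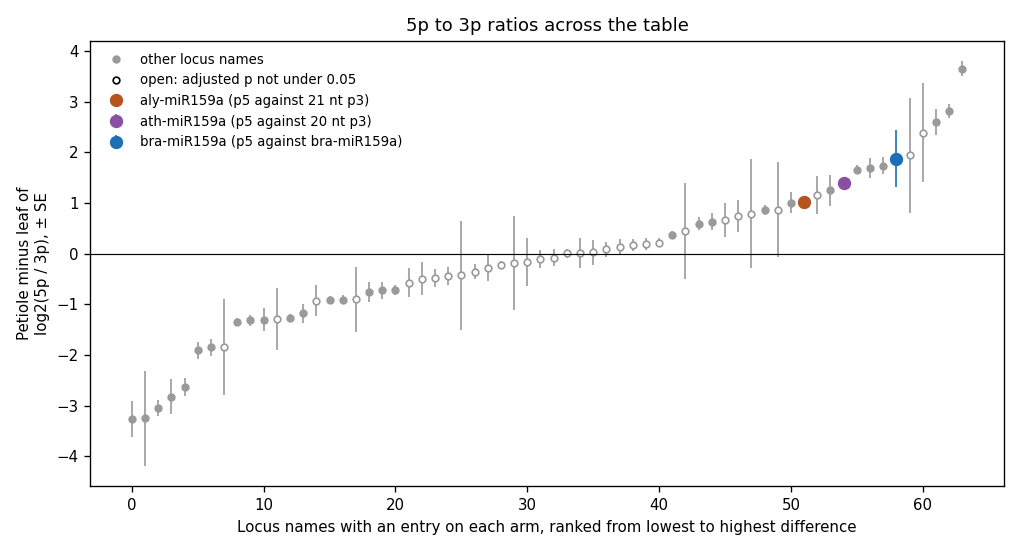
Petiole minus leaf difference of the log2 ratio of 5p to 3p entry (points, with SE) for 64 locus names in rank order, filled where the limma adjusted p is under 0.05. The 3 miR159a ratios lie above 0, at 1.02 (aly), 1.40 (ath) and 1.87 (bra).

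Among the variants of the mature form, ath-miR159b-3p_R+1_1ss21TA had 311, 376 and 352 in petiole and 437, 579 and 529 in leaf. The petiole values were lower without overlap, and the log2 difference was -0.57 ± 0.13 (SE; limma adjusted p = 0.011) on the deposited scale. With equal totals it turned to 0.29 and did not pass (limma adjusted p = 0.072). The form ath-miR159c_R-1 had 28.8, 36.5 and 35.3 in petiole and 47.2, 46.4 and 44.5 in leaf. Its log2 difference of -0.45 ± 0.14 (SE; limma adjusted p = 0.0397) was lost when any 1 library except petiole replicate 2 was left out (limma adjusted p from 0.073 to 0.092) and with median-of-ratios scaling (limma adjusted p = 0.057), and with equal totals it was called higher by 0.38 (limma adjusted p = 0.048). The form ath-miR159c_R-1_1ss19CT had 2.84, 3.84 and 3.62 in petiole and 5.71, 7.30 and 7.94 in leaf, lower in each petiole library, but its difference of -0.85 ± 0.32 did not pass (limma adjusted p = 0.066). It was called lower after quantile normalization (-1.68; limma adjusted p = 0.0044) and without the mean-variance trend (limma adjusted p = 0.011), while with equal totals the difference was -0.14 (limma adjusted p = 0.69). The form aqc-miR159 was below the filter, with 2.84, 3.36 and 0 in petiole and 3.63, 2.61 and 0 in leaf. In Arabidopsis miR159c comes from a locus of its own. Reads of near-identical forms can be divided among entries, so values of single minor forms are uncertain.

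The 23 nt form ath-miR159c_L-1R+3_1ss7TC goes against its family name. It has the same sequence and values as the entry cme-miR319c_R+3, and it matches bra-miR319-3p at 20 of 21 compared positions but bra-miR159a at 17 of 20. Its seed TGGACTG was found in 5 further sequences of the table, all named miR319, and in no other miR159 member. It had 20.8, 27.3 and 33.0 in petiole and was listed at 0, 0 and 2.65 in leaf, so its call as higher is read as a description. The fitted log2 difference was 4.16 with 1 added to each value, 4.87 with 0.5 added and 2.46 with 5 added, so its size depends on that choice, and no fold is given against values listed at 0. Without it, no miR159 sequence was called higher on the deposited scale and 6 of 8 were lower, while over all sequences 21.3% were called higher and 28.3% lower.

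**Figure D5:**
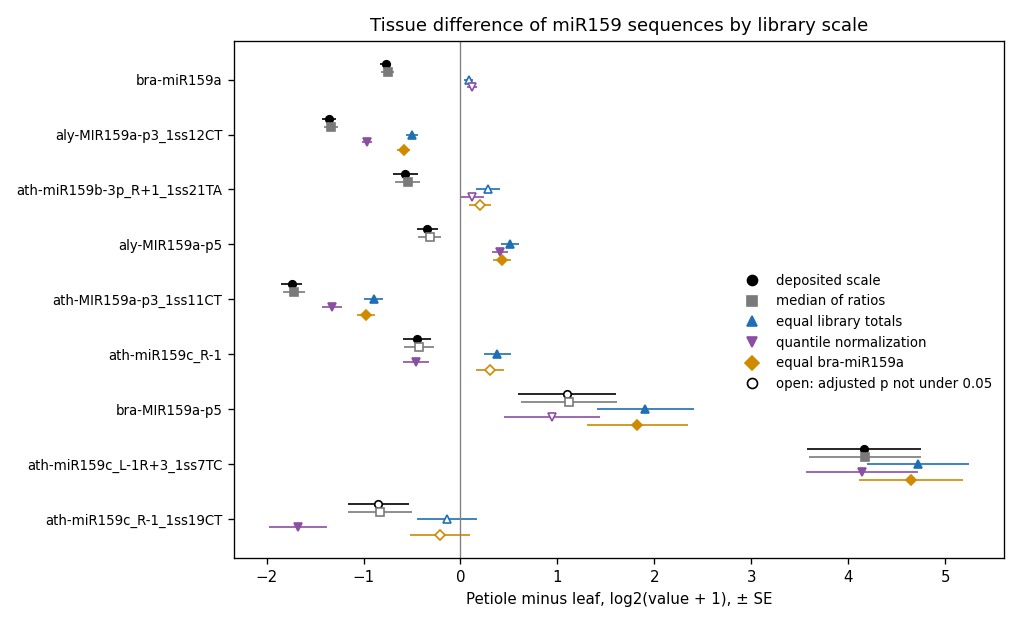
Petiole minus leaf difference on the log2(value + 1) scale, with SE, for the 9 tested miR159 sequences under 5 library scales, filled where the limma adjusted p is under 0.05. Both p3 entries stay below 0 under all 5, bra-miR159a is at -0.77 on the deposited scale and 0.083 with equal totals, and the form that shares its sequence with a miR319 entry, listed at 0 in 2 leaf libraries, lies far above 0.

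The related family miR319 and other regulators of MYB genes, miR828 and miR858, were described for comparison. In Arabidopsis miR828 and miR858 target MYB genes of secondary metabolism. The 3 families gave 17 tested sequences of 21, the shared 23 nt form included. Of the 17, 11 averaged under 5 in leaf and passed the filter through petiole alone, so that they had to come out higher, and 9 of these were listed at 0 in all leaf libraries. Of the other 6, which averaged 5 or more in each tissue, 4 were called higher and 1 lower on the deposited scale. Of all sequences tested on that scale, which were not filtered in each tissue, 21.3% were called higher and 28.3% lower. The called forms among the 6 were 4 miR319 forms and cas-miR858, and ath-miR828 did not pass. The main miR319 forms are shown for their closeness in sequence, with the seed in capitals.
ath-miR319c_L+1R-1: tTTGGACTgaagggagctcct
bra-miR319-3p: tTGGACTGaagggagctccct
The form ath-miR319c_L+1R-1 differs from bra-miR159a by T7C, T20C and A21T. It had 11168, 13355 and 12268 in petiole and 92.3, 91.7 and 127 in leaf, a log2 difference of 6.89 ± 0.14 (SE; limma adjusted p = 2.1e-07). The most abundant miR858 form, cas-miR858, had 357, 339 and 370 in petiole and 3872, 4529 and 3867 in leaf, a log2 difference of -3.52 ± 0.081 (SE; limma adjusted p = 2.9e-07). For miR828, ath-miR828_1ss14AG had 12.8, 18.7 and 15.8 in petiole and was listed at 0 in leaf.

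Outside the family, the profile over the 6 libraries most like that of bra-miR159a belonged to bra-miR160a-5p, from a family that targets auxin response factors. Likeness was measured as the Euclidean distance of log2(value + 1), centred over the libraries, among 181 sequences with a mean of at least 50. The distance was 0.10 (Pearson r = 0.99 over 6 libraries, which mainly reflects the 2 tissues). Next came bna-MIR156c-p3 at 0.21, bra-miR164a at 0.28, aly-miR171b-5p at 0.29 and mtr-miR166a_R+1 at 0.31. With equal library totals the same sequences came nearest in the same order. Their Pearson r was then 0.66, 0.37, -0.37, 0.72 and -0.040 in that order.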

How the data were processed

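TruSeq small RNA libraries were prepared from Trizol-extracted RNA and read on an Illumina HiSeq, and ACGT101-miR removed adapter dimers, junk and common RNA classes, per the labels' protocols. No source used here names the aligner, build or miRBase release. The authors deposited normalized read counts per sequence, a signal with no stated scaling factor, per the file headers. Low values lay on a step taken as 1 read, with 71.4% to 77.1% of values under 60 whole within 0.02 reads, so raw counts were not recovered. Totals stood for 457195 to 474192 reads in petiole and 729593 to 771262 in leaf, and reads on low members are few. Of 1069 entries, 58 repeated a sequence with the same values.

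Samples were grouped by tissue from their titles. Whether replicates are separate plants is not stated, so a p-value covers only variation among these libraries, which may be technical. Values were tested as log2(value + 1), petiole minus leaf, with limma 3.58.1 in R 4.3.3 with a mean-variance trend, over all sequences with a mean of at least 5, with Benjamini-Hochberg adjustment. The count model foreseen for raw counts did not apply. Ratios of arms were tested with limma without a trend over 64 locus names with a 5p and a 3p entry, each with 1 added; 5 names with the same sequence on both arms were left out, a choice made after values were seen. Base pairs were counted on the best local pairing of 2 strands, G:U allowed. The fits were also run on simulated counts. These had no tissue difference in library scale, so that run does not bear on the choice of scale. All members could be named; outside the family, the 5 sequences nearest in profile and the most abundant form of miR319, miR828 and miR858. Members and lists were chosen with earlier results of these data known. No genome was used here.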

Additional observations from a re-analysis of the deposited data

How the results depend on the processing

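The call of a lower bra-miR159a rested on the library scale. Its log2 difference of -0.77 turned to 0.083 with equal library totals and 0.12 after quantile normalization, neither of which passed. The difference stayed called at -0.75 with median of ratios, which nearly equals the deposited scale. It ranged from -0.81 to -0.73 when 1 library was left out. Equal totals moved the median of all sequences from 0.18 to 0.97. The difference of aly-MIR159a-p5 turned to 0.51 with equal totals, 0.41 after quantile normalization and 0.43 relative to bra-miR159a. That of ath-miR159b-3p_R+1_1ss21TA turned to 0.29, 0.12 and 0.20, and that of ath-miR159c_R-1 to 0.38 with equal totals and 0.30 relative to bra-miR159a. The number of forms called higher was 4 with equal totals, 2 after quantile normalization, 3 relative to bra-miR159a, 0 with a mean of at least 50 and 0 without the form that also has a miR319 name, against 1; the number lower was 2 with equal totals, 2 relative to bra-miR159a and 4 each with median of ratios, after quantile normalization and with no filter, against 6. Median of ratios and no filter each ended the calls of aly-MIR159a-p5 (limma adjusted p = 0.057 in both) and ath-miR159c_R-1 (0.057 and 0.059). The call of aly-MIR159a-p5 also ended without the mean-variance trend (limma adjusted p = 0.104). That of ath-miR159c_R-1 also ended with the replicate number as a block (limma adjusted p = 0.088). Without 1 library the number of forms called higher was 1 in each case and the number lower was 4 to 6. The shares differed by 0.625 to 0.792 (bra-miR159a in the family) and 0.494 to 0.957 (family in the library) percentage points without 1 library. The 5p to 3p log2 ratio at bra-miR159a ranged from 1.30 to 2.28 without 1 library. Its value of 1.87 no longer passed with the locus names that share sequences kept (limma adjusted p = 0.059). Both p3 entries and the aly and ath arm ratios kept their direction and call under every alternative tried. Where these values changed with a setting other than the scale itself, the cause was not tested.

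Deviations from the tissue mean correlated at 0.073, 0.0067 and 0.0076 for libraries with the same replicate number. All pairs of a petiole and a leaf library lay between -0.061 and 0.073, and petiole replicate 2 correlated best with leaf replicate 3, at 0.0089. Values this near to each other do not decide whether replicate numbers paired the libraries. With the replicate number as a block, the 5p to 3p ratio at bra-miR159a of 1.87 did not pass (limma adjusted p = 0.120), and 5 forms were lower and 1 higher. Counts under about 10 reads limit the rarest forms.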
